A study of Mus musculus with 24 samples.

Results

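DNA double-strand break repair and checkpoint genes were followed as a set of 37 genes chosen by function, of 21878 genes counted, in 21 mouse thymic lymphomas and 3 samples of normal thymus. The choice was made with earlier results of these data known. All 37 had enough reads to enter the tests, which covered 13121 genes. The lymphomas came from female B6C3F1 mice, a hybrid strain, given 4 whole-body doses of 1.6 Gy carbon ions at weekly intervals from 4 to 5 weeks of age. The normal thymus samples carry the same treatment label, and their titles add 7W without explaining it, so whether those mice were irradiated is not clear. RNA was taken from suspended lymphoma cells or thymocytes and sequenced as poly(A) libraries. Of the lymphomas, 11 stand in the authors' table of tumours with an Ikzf1 mutation and 10 in the table of tumours without one. Ikzf1 encodes Ikaros, a zinc finger transcription factor of lymphoid cells. Nothing in the labels states that the lymphomas are from separate animals. The p-values therefore reflect sample-to-sample spread, part of which may be technical. Lymphomas are named by library number.

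A double-strand break is sensed by the kinases ATM and ATR, which signal to the checkpoint kinases CHK1 and CHK2 and halt the cell cycle. Cells then rejoin the ends by classical end joining, which ligates ends with little trimming, by alternative end joining, which uses short stretches of matching bases, or by homologous recombination, which copies the sister chromatid in S and G2 phase after the ends have been resected. In the thymus the classical pathway has a further task, since developing T cells cut their receptor genes and need it to rejoin them. Heavy ions such as carbon leave dense tracks of damage, including clustered breaks.

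Library totals were 15 to 36.6 M counts (M is 1e+06) in the lymphomas and 24.5 to 27.5 M in thymus. Levels below are CPM, counts scaled to a common library size of 1e+06 by the TMM method. Lymphoma 7 had the lowest level of any lymphoma for 18 of the 37 genes and the lowest levels of the S-phase and G2-M markers. Lymphoma 34 had the highest level for 9 genes. Among the thymus libraries, number 2 was the lowest for 28 of the 37 genes and had the lowest S-phase and G2-M marker levels of the 3. The mean level of 20 S-phase marker genes, as log2(CPM + 1), was 7.21 ± 0.21 in thymus (SD, n = 3) and 7.59 ± 0.35 in the lymphomas (n = 21). For 16 G2-M markers it was 7.29 ± 0.34 and 7.36 ± 0.33. The summed level of 8 T-lineage markers was 6620 to 7390 CPM in thymus and 3080 to 5680 in the lymphomas, and 4 of the 8 fell. The summed level of 12 macrophage and monocyte markers was 148 to 221 CPM in thymus and 302 to 1370 in the lymphomas, and 10 of them rose. The sum of 8 fibroblast markers was 9.18 to 13.2 CPM against 51.1 to 1280, and 7 rose. Of those 7, Col1a2 (187 ± 247 CPM, SD) and Pdgfrb (183 ± 200) had by far the highest lymphoma means. Col3a1 (13.1 ± 8.99) and Sparc (7.76 ± 4.68) were much lower, so the lymphoma sum mainly reflects Col1a2 and Pdgfrb. Markers of thymic epithelium (30.5 to 78.3 CPM against 4.26 to 12.6) and of neutrophils (53.7 to 99.3 against 0.229 to 36.9) were lower in all 21 lymphomas than in any thymus library. All these marker sums moved with the comparison against thymus, and their part in the results below was not tested. In bulk RNA, fewer cells of a type and less RNA per cell cannot be told apart.

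Against thymus, 17 of the 37 genes differed in the lymphomas (edgeR's quasi-likelihood test, Benjamini-Hochberg adjusted over all tested genes, threshold 0.05), 12 higher and 5 lower. Over all genes, 30.8% differed, 15.4% higher and 15.4% lower. The median log2 fold change of the 37 was 0.45, against 0.069 for all genes. The rises lay among the checkpoint kinases (Atm, Chek1, Chek2), the MRE11-RAD50-NBS1 complex (Mre11a, Rad50, Nbn), alternative end joining (Parp1, Lig3) and the Ku pair (Xrcc5, Xrcc6), with Exo1 and Palb2. The falls were the end joining factors Xrcc4, Nhej1 and Dclre1c, with Rnf8 and Rad52. The TPM scale counts each gene per length and shifts the median of all genes from 0.069 to -0.061. Tested by limma on log2(TPM + 1), 8 of the 37 were higher and 6 lower, where 10.9% and 19.8% of all genes were. Of all genes called on that scale 35.6% were higher, against 50.0% on the count scale. Only 5 of the 17 calls (Chek2, Xrcc4, Nhej1, Parp1 and Nbn) held in all 30 alternatives, which include leaving out each library in turn. Without thymus 2 the count was 5 of the 37, where 14.4% of all genes were called. Without thymus 1 the count was 11 of the 37, where 2278 of 13406 genes were called. Calls over all genes thus fell as well when either library was left out.

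**Figure D1:**
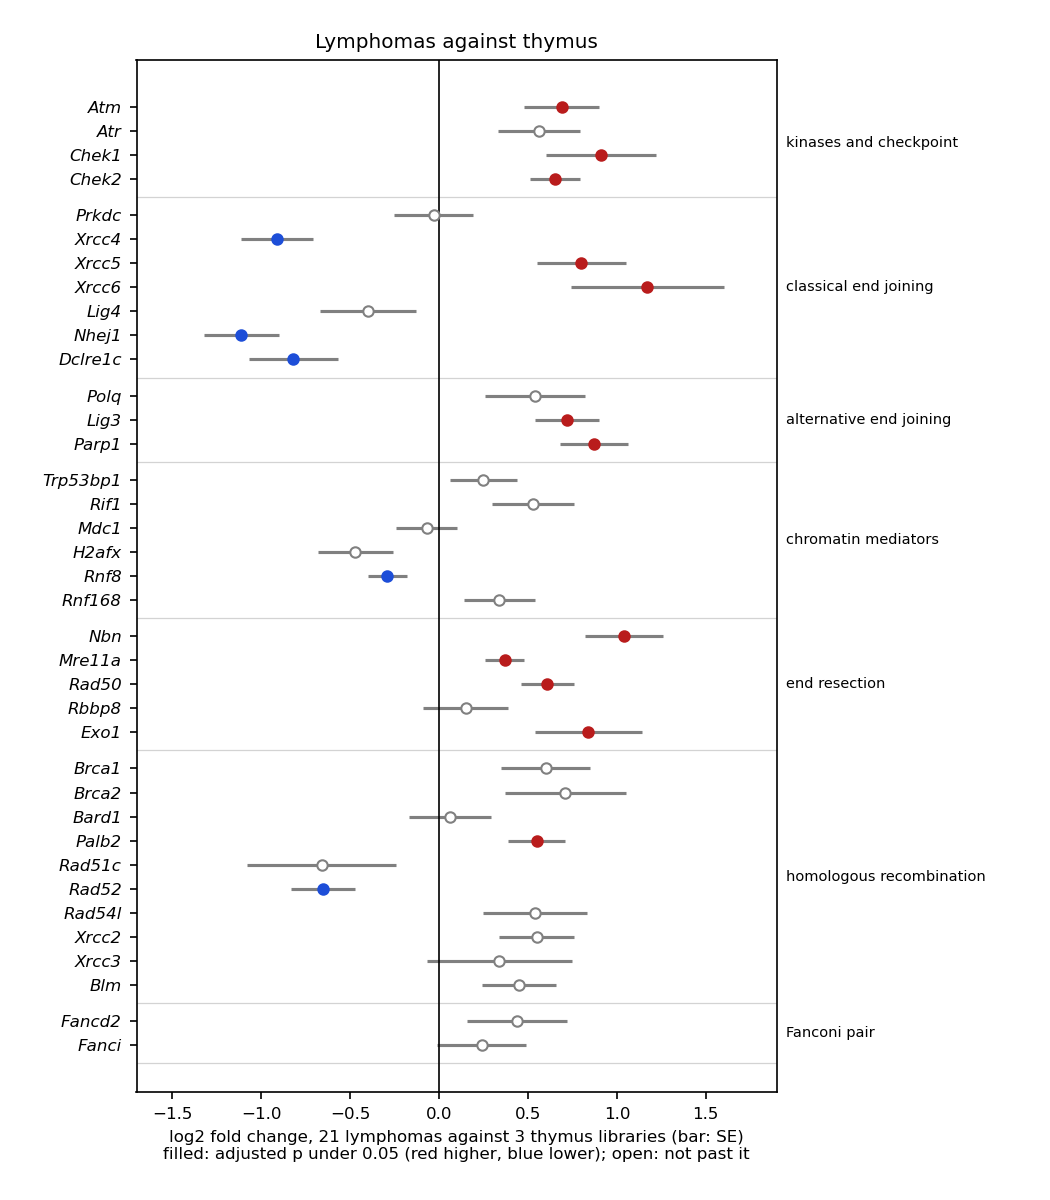
Log2 fold change of each of the 37 genes in 21 lymphomas against 3 thymus libraries, grouped by role, with the SE as the bar. Filled points are the 12 higher and 5 lower genes past an adjusted p of 0.05.

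In CPM, all 21 lymphomas lay above the thymus range for 4 genes (Chek2, Parp1, Nbn and Rad50), or 10.8% of the 37, where 6.33% of all tested genes did so. All 21 lay below it for 3 genes (Xrcc4, Nhej1 and Rad52), or 8.11%, where the share over all genes was 7.93%. The second share is close to that of all genes. In TPM, a scaling compared after the data were seen, the lymphomas were all above thymus for 2 genes (Chek2 and Parp1), or 5.41%, where 5.21% of all genes were. They were all below it for 4 (Xrcc4, Nhej1, Rad52 and Rnf8), or 10.8%, where 9.09% were. On that scale both shares are close to those of all genes. Judged per length, in TPM, H2afx was the most abundant of the 37 in thymus at a mean of 620, followed by Xrcc6 at 506, Parp1 at 154 and Lig4 at 128, and Rad51c was the least abundant at 1.35. In the lymphomas Xrcc6 came first at 1070 TPM and H2afx second at 424. By that order Xrcc4 went from place 9 in thymus to 27, and Nhej1 from place 12 to 31.

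**Figure D2:**
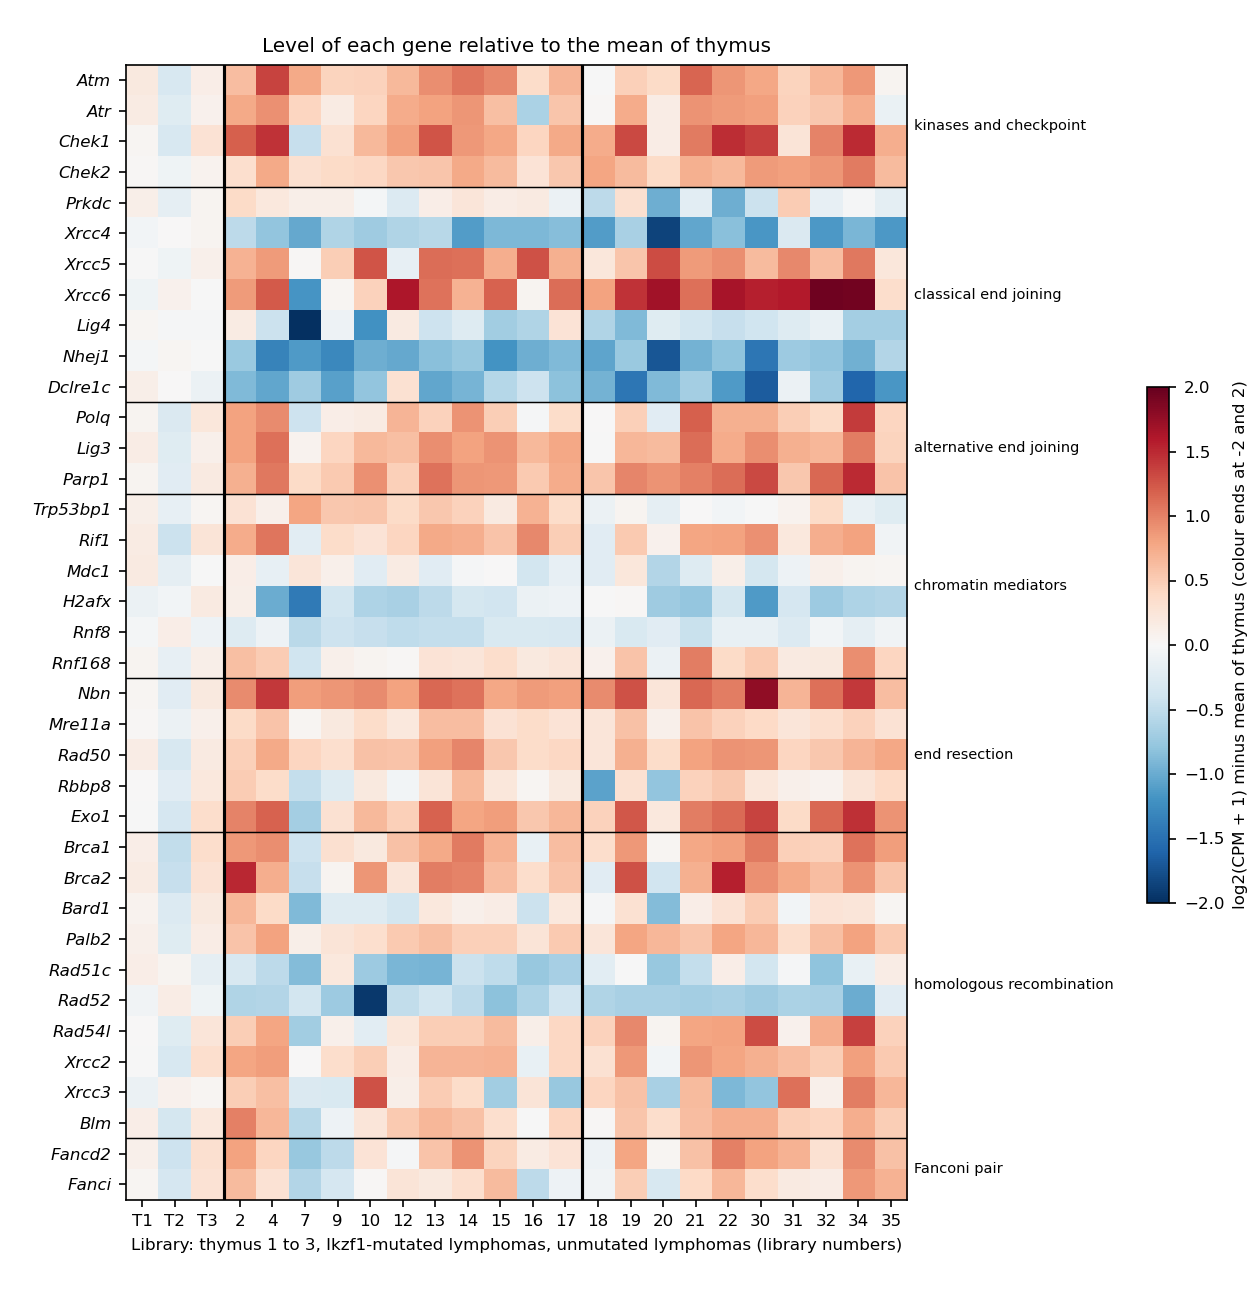
Level of each gene in each library as log2(CPM + 1) minus the mean of thymus, with genes in rows by role and libraries in columns (thymus, 11 Ikzf1-mutated lymphomas, 10 unmutated lymphomas). The rows of Chek2, Parp1, Nbn and Rad50 are red in all 21 lymphomas, those of Xrcc4, Nhej1 and Rad52 are blue in all 21, and the column of lymphoma 7 stands out with low values. Palb2 and Mre11a are also above the thymus mean in all 21, and Rnf8 is below it in all 21, in some lymphomas only slightly.

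Promoter sequences of 28 of the 37 genes were matched by symbol in RefSeq (GRCm38.p6), each running from 250 bases before to 50 after the gene start. No promoter was matched for Prkdc, Rif1, H2afx, Nbn, Rad50, Rbbp8, Exo1, Xrcc2 and Fancd2, which the promoter counts leave out. The matched promoters are described here. These promoters were searched on both strands for words bound by cell cycle factors of the E2F family (TTTCCCGC, TTTCGCGC, TTTGCCGC, TTTGGCGC) and for the E-box CACGTG, bound by MYC-type factors. An E2F word was found for 6 of the 28 genes (Bard1, Brca2, Chek2, Mdc1, Rad51c and Xrcc6), or 21.4%, and in 2.26% of all 32851 promoters. For each word here the first share is of genes, whose promoters number 31 for the 28, and the second is of promoters. The 2 shares are therefore not in like units. Of those 6, 4 had a level that correlated with S-phase markers over the lymphomas, against 11 of the 22 without such a word. The E-box was found for Lig3, Parp1 and Xrcc5, or 10.7% of genes, and in 7.15% of all promoters. All 3 of those genes rose in the lymphomas, as did 6 of the 25 without an E-box, 2 of the 6 with an E2F word and 15.4% of all tested genes. The word TTTGAA of the cell cycle homology region was found for 3 genes (10.7% against 17.9%) and CCAAT for 13 (46.4% against 37.4%). A match describes the letters and shows no binding. The sequences of Chek2 and Bard1 are shown because they carry an E2F word in genes whose level correlated with S-phase markers, and those of Parp1, Lig3 and Xrcc5 because they carry the E-box in genes that rose. Brca2 and Xrcc6 also carry an E2F word and correlated with those markers (r = 0.75 and 0.67), but their sequences are not shown. Each sequence shown is given 5′ to 3′ on the strand of the gene with the word in capitals. On GRCm38.p6 they lie at chr5:110839733-110840032 (plus strand), chr1:71102923-71103222 (minus), chr1:180568641-180568940 (plus), chr11:82780859-82781158 (plus) and chr1:72307171-72307470 (plus), in the order below.
Chek2: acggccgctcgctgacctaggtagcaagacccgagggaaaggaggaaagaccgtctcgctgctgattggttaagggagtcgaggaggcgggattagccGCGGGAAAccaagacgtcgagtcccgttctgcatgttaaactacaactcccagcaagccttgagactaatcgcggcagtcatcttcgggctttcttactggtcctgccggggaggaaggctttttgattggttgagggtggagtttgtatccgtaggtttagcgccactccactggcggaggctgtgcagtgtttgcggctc
Bard1: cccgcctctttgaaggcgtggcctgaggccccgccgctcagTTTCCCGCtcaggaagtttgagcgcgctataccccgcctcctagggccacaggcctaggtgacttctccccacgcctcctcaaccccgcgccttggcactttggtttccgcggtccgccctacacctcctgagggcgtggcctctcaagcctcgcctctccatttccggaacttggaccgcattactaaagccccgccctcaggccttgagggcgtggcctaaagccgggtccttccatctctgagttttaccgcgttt
Parp1: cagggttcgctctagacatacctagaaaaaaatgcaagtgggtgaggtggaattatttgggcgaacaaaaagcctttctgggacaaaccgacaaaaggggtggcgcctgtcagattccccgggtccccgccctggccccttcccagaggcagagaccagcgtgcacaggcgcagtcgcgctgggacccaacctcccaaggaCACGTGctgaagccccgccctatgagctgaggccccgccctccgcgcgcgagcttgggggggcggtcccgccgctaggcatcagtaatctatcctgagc
Lig3: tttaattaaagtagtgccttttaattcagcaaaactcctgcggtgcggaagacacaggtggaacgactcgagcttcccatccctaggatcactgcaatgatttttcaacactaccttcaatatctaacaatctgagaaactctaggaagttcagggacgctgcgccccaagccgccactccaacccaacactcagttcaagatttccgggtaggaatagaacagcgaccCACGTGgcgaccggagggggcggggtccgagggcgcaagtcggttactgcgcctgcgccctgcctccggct
Xrcc5: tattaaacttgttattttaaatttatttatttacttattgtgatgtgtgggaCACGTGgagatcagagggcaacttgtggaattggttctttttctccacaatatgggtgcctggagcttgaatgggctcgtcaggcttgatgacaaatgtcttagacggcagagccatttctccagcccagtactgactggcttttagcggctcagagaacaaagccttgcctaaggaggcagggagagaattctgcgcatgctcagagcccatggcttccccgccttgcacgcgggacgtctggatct
In Chek2 and Bard1 the word is TTTCCCGC, on the other strand in Chek2 and on the given strand in Bard1. The E-box reads the same on both strands.

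The checkpoint kinases rose in 3 of 4 cases. Chek2 (chromosome 5, 110839979 to 110874145, GRCm38), whose promoter carries the E2F word shown above, encodes CHK2, the kinase that ATM activates. Its levels in thymus 1, 2 and 3 were 25.2, 23.2 and 26.0 CPM, and the lymphomas ran from 30.3 through a median of 38.9 to 52.1. No lymphoma reached down to the thymus range. The log2 fold change was 0.65 (SE of 0.14, adjusted p = 0.00166), or 1.57-fold, and the adjusted p stayed at or below 0.023 in all 30 alternatives. From the lowest lymphoma (16) to the highest (34) it spanned 1.72-fold.

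Atm (chromosome 9, 53439149 to 53536740), the kinase that responds first to a break, stood at 87.1, 60.8 and 83.9 CPM in thymus and at 76.0 to 196 in the lymphomas, with a median of 121. It was above the thymus range in 19 lymphomas and within it in the others, with lymphoma 18 the lowest and lymphoma 4 the highest. The log2 fold change was 0.69 (SE of 0.21, adjusted p = 0.0171), with an adjusted p of 0.143 without thymus 2 and 0.0618 on log2(TPM + 1). Chek1 (chromosome 9, 36708482 to 36727065) encodes CHK1, the kinase that ATR activates at stalled forks and resected ends. Thymus held 47.2, 36.6 and 56.6 CPM of it, and the lymphomas 33.3 to 131, median 81.8. It exceeded thymus in 18 lymphomas and was below it in lymphoma 7 (log2 fold change 0.91, SE of 0.31, adjusted p = 0.0272; 0.159 without thymus 2 and 0.0894 without thymus 1). For Atr, the other sensor kinase, 17 lymphomas were above thymus but the difference missed the threshold (log2 fold change 0.56, adjusted p = 0.0722). With DESeq2 the adjusted p was 0.0402, and with 1 library left out edgeR gave 0.0206 to 0.286.

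Classical end joining split into genes that rose and genes that fell. The end-binding Ku heterodimer of Xrcc5 (Ku80) and Xrcc6 (Ku70) was higher. The ligation factors Xrcc4 and Nhej1 and the nuclease gene Dclre1c were lower. Prkdc and Lig4 did not pass the test.

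Nhej1 (chromosome 1, 74967139 to 75125200) encodes XLF, a filament protein that holds broken ends together. It was at 10.4, 11.1 and 10.7 CPM in thymus and at 2.57 to 6.78 in the lymphomas, with a median of 5.03. Every lymphoma lay below every thymus library, with lymphoma 20 the lowest. The log2 fold change was -1.11 (SE of 0.21, adjusted p = 0.000466), a 2.16-fold lower level. Its partner Xrcc4 (chromosome 13, 89774027 to 90089608), which carries DNA ligase IV to the ends, measured 21.3, 22.1 and 22.9 CPM in thymus and 5.42 to 18 in the lymphomas, median 11.4. Again no lymphoma reached thymus. Lymphoma 20 was the lowest and lymphoma 31 the highest (log2 fold change -0.91, SE of 0.20, adjusted p = 0.00196, 1.88-fold lower). For both genes the thymus libraries lay within a narrow range, and both calls held in all 30 alternatives.

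Dclre1c (chromosome 2, 3424131 to 3464130) encodes Artemis, the nuclease that opens the hairpin ends made when receptor genes are cut. Thymus had 91.7, 84.4 and 77.5 CPM, and the lymphomas 25.9 to 104, median 45.4. It was below thymus in 19 lymphomas. Lymphoma 12, at 104 CPM, was above thymus and lymphoma 31, at 78.0 CPM, was within the thymus range. The log2 fold change was -0.82 (SE of 0.25, adjusted p = 0.0175), and the adjusted p was 0.0538 to 0.104 with any 1 of the 3 thymus libraries left out. Lig4, the ligase itself, measured 213, 203 and 203 CPM in thymus and 46.2 to 249 in the lymphomas, median 154. It was below thymus in 18 lymphomas and above it in 3, and the 95% interval of its log2 fold change was -0.92 to 0.12 (estimate -0.40, adjusted p = 0.263). Lymphoma 7 held 46.2 CPM and lymphoma 10 held 88.1, and the next lowest held 111. Prkdc, the DNA-dependent kinase that Ku recruits, had 8 lymphomas above thymus and 7 below (log2 fold change -0.03, 95% interval -0.47 to 0.41). Its direction turned under several alternatives.

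Xrcc5 (chromosome 1, 72307421 to 72394952) was at 43.3, 41.1 and 46.8 CPM in thymus and at 38.7 to 109 in the lymphomas, median 72.8. It exceeded thymus in 19 lymphomas, with 1 within the range and lymphoma 12 below it (log2 fold change 0.80, SE of 0.25, adjusted p = 0.0171; 0.0924 without thymus 2 and 0.068 without thymus 1). Xrcc6 (chromosome 15, 81987835 to 82040085) had the highest ratio of the highest to the lowest lymphoma among the 37 genes. Thymus held 512, 581 and 545 CPM. The lymphomas ran from 240 to 2110 with a median of 1180, an 8.81-fold range, and 18 exceeded thymus. Lymphoma 7, at 240 CPM or 0.202 of the lymphoma median, was the single value in any of the 37 genes under 0.25 of that median, and none was over 4 times it. The log2 fold change of Xrcc6 was 1.17 (SE of 0.43, adjusted p = 0.0416), and the adjusted p was 0.116 to 0.137 with any 1 thymus library left out. On log2(TPM + 1) the log2 fold change was 0.93 (limma, adjusted p = 0.0934). Desi1, on the opposite strand, shares 7.7% of the exonic bases of Xrcc6 and did not pass the test over all lymphomas (log2 fold change 0.60, adjusted p = 0.105). It passed in the unmutated set against thymus (0.83, adjusted p = 0.017) and not between the sets (-0.48, adjusted p = 0.0849). Over the 21 lymphomas the correlation of the 2 Ku genes did not pass the threshold (Pearson r = 0.25, adjusted permutation p = 0.549).

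Chromosome 15 genes were raised as a group in some lymphomas. In 8 lymphomas the median log2 ratio to thymus over chromosome 15 was 0.33 to 0.55, and in the other 13 it was -0.09 to 0.20. This division at 0.3 was set after the values were seen. Xrcc6 was 699 to 2110 CPM (median 1695) in the 8, all above thymus, and 240 to 1640 CPM (median 1160) in the 13, of which 10 were above thymus. The ranges overlap. Of the 8, 7 were unmutated, and of the 13, 10 were mutated, so mutation set and the level of chromosome 15 moved together.

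**Figure D3:**
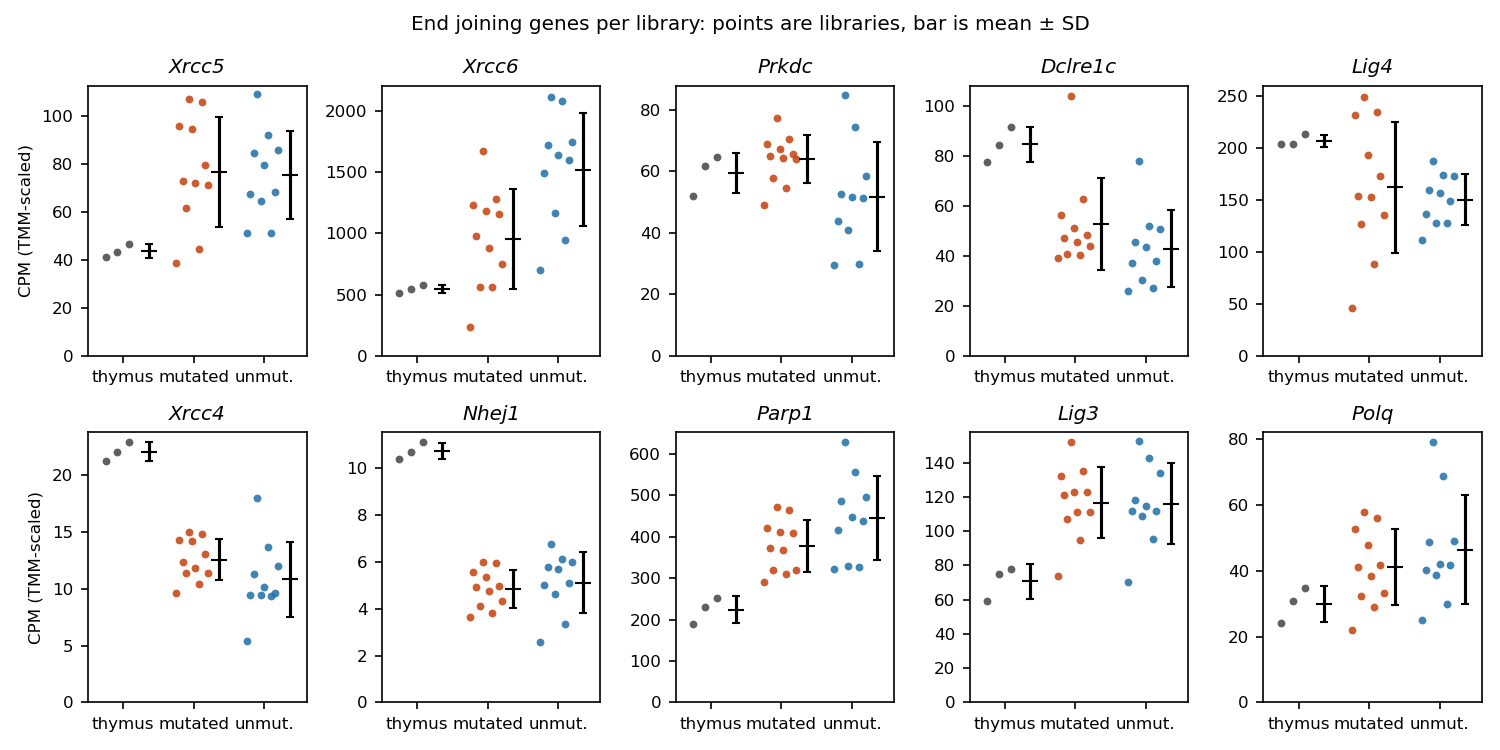
CPM of 7 classical and 3 alternative end joining genes per library in thymus (n = 3), mutated (n = 11) and unmutated lymphomas (n = 10), with the mean ± SD beside the points and axes from 0. Xrcc4 and Nhej1 lie below thymus in every lymphoma, Parp1 lies above it in every lymphoma, and Xrcc6 spans 240 to 2110 CPM.

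Alternative end joining rose in 2 of 3 genes. Parp1 (chromosome 1, 180568924 to 180601254), which senses breaks and builds poly(ADP-ribose) chains on nearby proteins, stood at 231, 190 and 252 CPM in thymus. The lymphomas ran from 291 to 630, median 411, so all 21 were above thymus. Lymphoma 7 was the lowest and lymphoma 34 the highest (log2 fold change 0.87, SE of 0.19, adjusted p = 0.00179, 1.83-fold), and the call held in all 30 alternatives. Lig3 (chromosome 11, 82781108 to 82804274), the ligase of this pathway and of single-strand break repair, shares the E-box with Parp1 and had 77.9, 59.1 and 75.0 CPM in thymus and 70.1 to 153 in the lymphomas, median 115. It was above thymus in 19 lymphomas (log2 fold change 0.72, SE of 0.18, adjusted p = 0.00416; 0.0573 without thymus 2). Rffl, on the opposite strand, shares 25.1% of the exonic bases of Lig3 and did not pass the test (log2 fold change -0.23, adjusted p = 0.346). The sources used here do not state whether counting used strand. Polq, the polymerase that anneals and fills the short matching ends, was above thymus in 15 lymphomas (log2 fold change 0.54, 95% interval -0.00 to 1.09, adjusted p = 0.14).

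End resection rose in 4 of 5 genes, among them all 3 subunits of the MRE11-RAD50-NBS1 complex, which binds ends, tethers them and activates ATM. Nbn (chromosome 4, 15957925 to 15992589), the NBS1 subunit, was at 24.5, 20.1 and 27.4 CPM in thymus and at 28.2 to 83.7 in the lymphomas, median 46.9. All 21 lymphomas were above thymus in CPM, lymphoma 20 by the least (log2 fold change 1.04, SE of 0.22, adjusted p = 0.00101, 2.05-fold), and the call held in all 30 alternatives. In TPM 20 lymphomas were above thymus, and lymphoma 20 at 22.9 lay within its range of 17.8 to 25.1. Rad50 (chromosome 11, 53649519 to 53707319), the coiled-coil subunit, measured 70.9, 50.8 and 72 CPM in thymus and 76.0 to 126, median 95.6, in the lymphomas. The groups did not overlap in CPM (log2 fold change 0.61, SE of 0.15, adjusted p = 0.00312; 0.0586 without thymus 2). In TPM lymphoma 18 at 31.4 lay within the thymus range of 25.1 to 37.3. Mre11a (chromosome 9, 14784654 to 14837123), the nuclease subunit, was at 63.5, 57.5 and 67.0 CPM in thymus and 64.2 to 96.3 in the lymphomas, median 80.7. It was above thymus in 20 lymphomas and within its range in lymphoma 7 (log2 fold change 0.37, SE of 0.11, adjusted p = 0.0144; 0.108 without thymus 2 and 0.0823 on log2(TPM + 1)).

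Exo1 (chromosome 1, 175880581 to 175913489), an exonuclease of long-range resection, had 32.1, 25.3 and 41.5 CPM in thymus and 19.8 to 90.9 in the lymphomas, median 58.7. It exceeded thymus in 18 lymphomas and was below it in lymphoma 7 (log2 fold change 0.84, SE of 0.30, adjusted p = 0.0346; 0.192 without thymus 2, 0.113 without thymus 1 and 0.064 on log2(TPM + 1)). Rbbp8, which encodes CtIP, the partner that starts resection, did not pass the test (log2 fold change 0.15, 95% interval -0.32 to 0.62), with 11 lymphomas above thymus and 4 below.

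The chromatin mediators, which mark the break and choose between pathways, had 1 fall and no rise among 6 genes. Rnf8 (chromosome 17, 29614790 to 29644991), the ubiquitin ligase that MDC1 recruits, measured 39.9, 45.2 and 38.3 CPM in thymus and 28.0 to 39.4 in the lymphomas, median 33.1. It was below thymus in 19 lymphomas, and its ratio of highest to lowest lymphoma was the smallest of the 37 genes at 1.41-fold (log2 fold change -0.29, SE of 0.11, adjusted p = 0.0404). The call was lost without lymphoma 20 (0.051), without lymphoma 35 (0.052), without any 1 thymus library (0.0933 to 0.286) and with no filter on low counts (0.0917). Of its exonic bases, 13.2% are shared with Gm28043 on the same strand. The histone gene H2afx was below thymus in 17 lymphomas (log2 fold change -0.47, adjusted p = 0.0939). By limma on log2(TPM + 1) the adjusted p was 0.0417, and with 1 library left out edgeR gave 0.0597 to 0.355. Rif1 (0.53, adjusted p = 0.0836), Rnf168 (0.34, 0.198), Trp53bp1 (0.25, 0.319) and Mdc1 (-0.07, 0.806) did not pass over all lymphomas.

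Homologous recombination had 1 rise and 1 fall among 10 genes. Palb2 (chromosome 7, 122107262 to 122132985), which links BRCA1 to BRCA2, was at 16.1, 12.5 and 16.8 CPM in thymus and 16.3 to 27.1 in the lymphomas, median 22. It exceeded thymus in 20 lymphomas (log2 fold change 0.55, SE of 0.16, adjusted p = 0.0103; 0.112 without thymus 2). Rad52 (chromosome 6, 119902698 to 119922828), an annealing protein, stood at 40.5, 47.3 and 40.0 CPM in thymus and at 10.4 to 36.3 in the lymphomas, median 27.0. Every lymphoma was below every thymus library, with lymphoma 10 the lowest at 10.4 CPM and lymphoma 34 next at 20.8 (log2 fold change -0.65, SE of 0.18, adjusted p = 0.00963; 0.0904 without thymus 2).

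Brca1 (log2 fold change 0.60, adjusted p = 0.0704), Brca2 (0.71, 0.115), Xrcc2 (0.55, 0.051), Rad54l (0.54, 0.16) and Blm (0.45, 0.109) were each above thymus in 14 to 17 lymphomas but missed the threshold. Without lymphoma 7 the adjusted p was 0.0282 for Brca1, 0.0311 for Xrcc2 and 0.0363 for Blm. Over all libraries left out in turn, edgeR's adjusted p reached 0.36, 0.279 and 0.431 for these genes, in that order. Bard1, the partner of BRCA1, was at 0.06 (95% interval -0.40 to 0.51), and its direction turned on the TPM scale and without thymus 2. Xrcc3, a recombination mediator, had no lymphoma within the thymus range of 12.1 to 14.1 CPM. It was above it in 14, up to 33.4 CPM, and below it in 7, down to 6.65, with a log2 fold change of 0.34 (adjusted p = 0.555). Rad51c, its partner in a complex, was low throughout at 0.44 to 2.18 CPM in the lymphomas. Fancd2 and Fanci, the pair that the Fanconi core complex ubiquitinates at crosslinks, did not pass (log2 fold change 0.44 with adjusted p = 0.242, and 0.24 with 0.486).

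Set by set, 14 genes differed from thymus in the mutated lymphomas (10 higher, 4 lower), where 26.0% of all genes did, and 19 in the unmutated lymphomas (15 higher, 4 lower), where 35.4% did. Both comparisons use the same 3 thymus libraries. On log2(TPM + 1), 39.1% and 32.5% of all genes called were higher, against 50.2% and 51.0% on counts. The genes called in the mutated set were Atm, Chek2, Xrcc5, Lig3, Parp1, Trp53bp1, Nbn, Mre11a, Rad50 and Palb2, higher, and Xrcc4, Nhej1, Rnf8 and Rad52, lower. Those called in the unmutated set were Atm, Chek1, Chek2, Xrcc5, Xrcc6, Lig3, Parp1, Nbn, Mre11a, Rad50, Exo1, Brca1, Palb2, Rad54l and Xrcc2, higher, and Xrcc4, Nhej1, Dclre1c and Rad52, lower. Without thymus 2 the counts were 4 and 8 of the 37, where 10.8% and 21.3% of all genes were called. Without thymus 1 the unmutated count was 12 of the 37, where 22.1% of all genes were called. Whether the sets differ was tested directly.

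Between the mutated and the unmutated lymphomas 1 of the 37 genes passed the threshold, and it was higher in the mutated set. Of all genes 5.38% passed, 2.43% higher and 2.95% lower. On log2(TPM + 1) 76.5% of the genes called were higher in the mutated set, against 45.2% on counts. Of the 37, 6 had an unadjusted p under 0.05, or 16.2%, below the 23.1% of all genes. The gene past the threshold was Trp53bp1 (chromosome 2, 121193281 to 121271407), which encodes 53BP1, a chromatin reader that blocks resection and favours end joining. Thymus held 71.7, 58.8 and 67.5 CPM. The mutated lymphomas ran from 71.0 to 115 with a median of 91.4, and the unmutated from 55.5 to 86.3 with a median of 64.4. The sets overlapped, since lymphoma 32, an unmutated tumour, had 86.3 CPM. Lymphoma 16, a mutated tumour at 107 CPM, had a median log2 ratio to thymus of 0.29 over chromosome 2 genes. The other lymphomas reached at most 0.08, and the part of this in the level of Trp53bp1 was not tested. Means were 90.9 ± 13.4 (SD, n = 11) and 65.0 ± 8.69 (n = 10), with a log2 fold change of 0.48 (SE of 0.09, adjusted p = 0.0101). The adjusted p was at most 0.0243 with any 1 library left out and at most 0.0141 in the 6 other settings. Against thymus the mutated set was higher (log2 fold change 0.46, adjusted p = 0.0148; 0.105 without thymus 2, and 0.0508 on log2(TPM + 1) by limma) and the unmutated set was not past the threshold (-0.02, adjusted p = 0.914). Tubgcp4, on the opposite strand, shares 15% of the exonic bases of Trp53bp1 and had a log2 fold change of 0.05 between the sets (adjusted p = 0.83).

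The G2-M marker level was 7.21 ± 0.35 in the mutated set and 7.54 ± 0.22 in the unmutated set, and the S-phase level 7.47 ± 0.36 and 7.71 ± 0.30. Over the 21 lymphomas Trp53bp1 had a Pearson r of -0.63 with the G2-M level (adjusted permutation p = 0.0421) and a Spearman rho of -0.55 (0.204), and r was -0.41 without lymphomas 16 and 7. The part of the cell cycle markers in the difference between the sets was not tested.

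Among the other genes with an unadjusted p under 0.05, Chek2 was lower in the mutated set at 35.7 ± 4.3 CPM against 42.3 ± 5.3 (log2 fold change -0.25, SE of 0.08, adjusted p = 0.0779; 0.0415 with DESeq2). Xrcc6 measured 956 ± 408 against 1520 ± 460 CPM (log2 fold change -0.67, SE of 0.24, adjusted p = 0.0999). Rad54l (-0.46, adjusted p = 0.112), Rnf8 (-0.18, 0.112) and Rad51c (-0.63, 0.204) were the others. For the 3 genes below thymus in all 21 lymphomas in CPM the 95% intervals of the log2 fold change between the sets were -0.09 to 0.51 for Xrcc4, -0.40 to 0.26 for Nhej1 and -0.26 to 0.28 for Rad52.

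**Figure D4:**
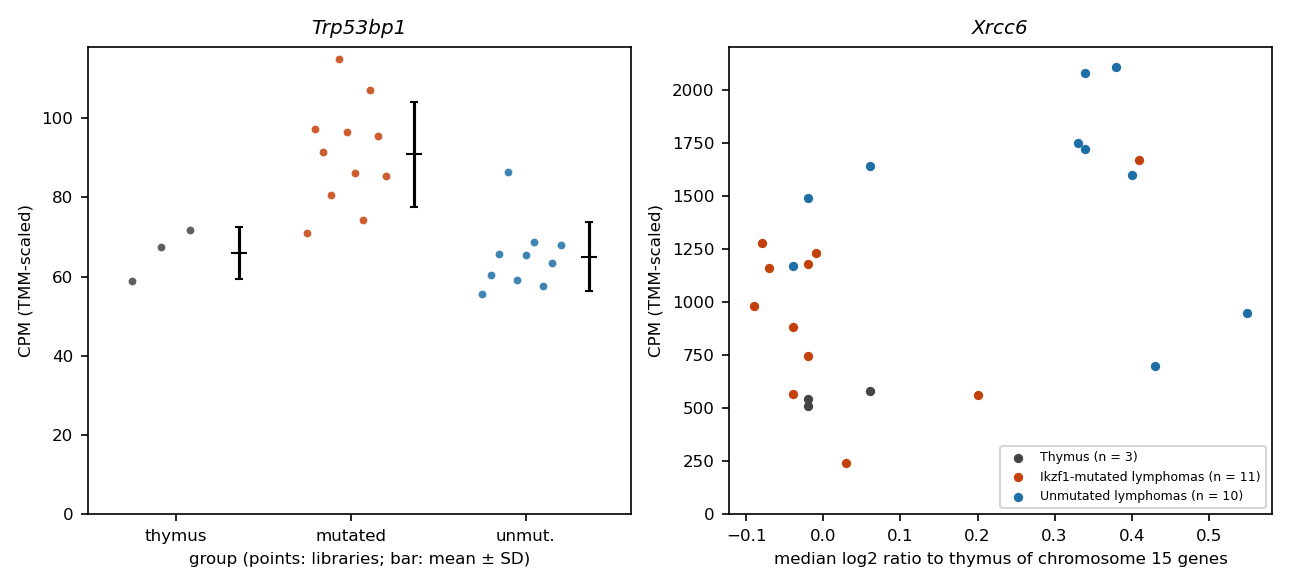
Left, CPM of Trp53bp1 per library in thymus, mutated and unmutated lymphomas with mean ± SD; the unmutated values run from 55.5 to 86.3 and the mutated values from 71.0 to 115. Right, CPM of Xrcc6 against the median log2 ratio to thymus of chromosome 15 genes in the same libraries, in which 8 lymphomas lie at 0.33 or more.

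Many of these genes varied over the lymphomas with the level of S-phase markers such as the Mcm genes, Pcna and Rrm1, none of which is among the 37. Of the 37, 20 had a positive correlation past the threshold and none a negative one, by a permutation test of Pearson's r over 21 lymphomas with adjustment over 13121 genes. At an unadjusted p under 0.05 the negative ones were Dclre1c and Trp53bp1, and by Spearman's rho Dclre1c passed. Over all genes, 6.75% were positive and 5.55% negative. The median r was 0.62 for the 37 and -0.03 for all genes. With the G2-M markers 14 were positive and 1, Trp53bp1, negative, by Pearson's r, where the shares over all genes were 2.92% and 1.08%. By Spearman's rho Chek2 (adjusted permutation p = 0.0481), Fancd2 (0.00954) and Fanci (0.0125) passed, and the others of the 14 did not. Without lymphomas 16 and 7, the farthest from the median G2-M level, r of the 14 was 0.28 (Xrcc6) to 0.77 (Fancd2).

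The closest relations were those of the resection gene Exo1, of Chek1 and of the recombination genes Rad54l, Bard1 and Brca1. Exo1 had r = 0.97 and rho = 0.94, Chek1 0.95 and 0.92, Rad54l 0.92 and 0.90, Bard1 0.88 and 0.91, and Brca1 0.87 and 0.84. For these genes the raw permutation p of r was 1e-05, the smallest that 100000 resamples can give, and the adjusted p was 0.0012. For rho the adjusted p was 0.00222, or 0.00316 for Brca1. Without lymphomas 34 and 7, the 2 farthest from the median S-phase level, r was 0.93, 0.94, 0.85, 0.91 and 0.78.

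Rnf168 (0.83), Blm (0.82), Fancd2 (0.81), Fanci (0.78), Xrcc2 (0.78), Polq (0.78), Palb2 (0.76), Brca2 (0.75), Parp1 (0.74) and Mre11a (0.74) followed, with adjusted permutation p from 0.00177 to 0.00491. Their rho was 0.69 to 0.84 (adjusted p from 0.00222 to 0.0242), and r without lymphomas 34 and 7 was 0.62 to 0.79. For Nbn r was 0.67 (adjusted p = 0.0199) and rho 0.81 (0.00222), and for Chek2 0.65 (0.0173) and 0.64 (0.0427). Rif1 had r = 0.62 (0.0275) and rho = 0.59 (0.0699). The relation of Xrcc6 rested on lymphomas 34 and 7, since r went from 0.67 (adjusted p = 0.0236) to 0.30 without them and rho was 0.41 (0.25). For Lig3 r went from 0.62 (0.0338) to 0.39 without them, with rho at 0.64 (0.0456).

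None of the 5 genes that fell in the lymphomas had a positive correlation past the threshold. For Xrcc4 r was 0.16 (adjusted p = 0.679), for Nhej1 0.27 (0.463), for Rad52 -0.12 (0.748) and for Rnf8 0.51 (0.0842). Dclre1c ran the other way, at r = -0.54 (adjusted p = 0.0797) and rho = -0.64 (0.0393). Among genes that rose, Atm (r = 0.26, adjusted p = 0.474) and Xrcc5 (0.25, 0.514) had no relation past the threshold, nor did Rad50 (0.54, 0.0652). Prkdc and Mdc1 both had r = 0.01. The resection gene Rbbp8 had r = 0.55 (adjusted p = 0.0809) and rho = 0.63 (0.0432). The recombination genes Rad51c (r = 0.36, adjusted p = 0.285) and Xrcc3 (0.23, 0.543) did not pass.

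**Figure D5:**
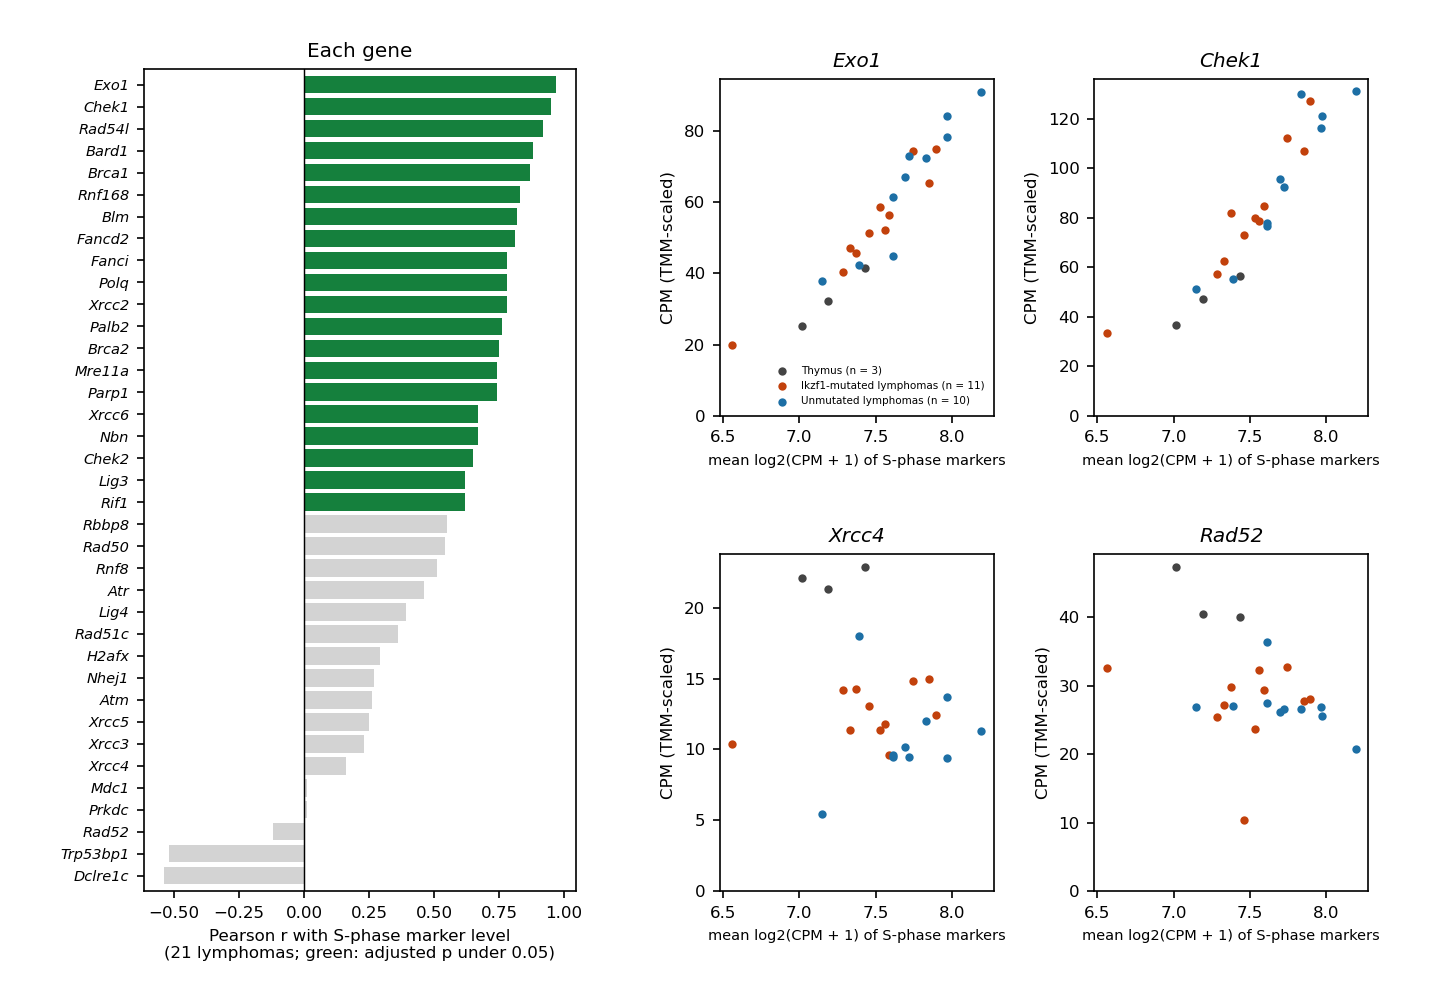
Left, Pearson r of each of the 37 genes with the S-phase marker level over 21 lymphomas, with the 20 genes past an adjusted p of 0.05 in green. Right, CPM of Exo1, Chek1, Xrcc4 and Rad52 against the mean log2(CPM + 1) of the S-phase markers in all 24 libraries, in which Exo1 and Chek1 rise with the markers and Xrcc4 and Rad52 show no such order.

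Partners of a complex or pathway step were compared in 10 fixed pairs over the 21 lymphomas, with the first gene of each pair tested against all genes. Pairs past the threshold were Brca1 with Bard1 (r = 0.85, rho = 0.79, adjusted permutation p = 0.00162 and 0.00615), Fancd2 with Fanci (0.82 and 0.82, adjusted p = 0.00202 and 0.0041) and Mre11a with Rad50 (0.76 and 0.78, adjusted p = 0.00958 and 0.00984). Among 13121 genes, Bard1 was number 39 by r with Brca1, Fanci number 57 with Fancd2 and Rad50 number 68 with Mre11a. With the 2 most extreme lymphomas for the first gene left out, r was 0.78, 0.73 and 0.75. Atr with Chek1 passed by rank (rho = 0.78, adjusted p = 0.0112) but not by Pearson's r (0.58, 0.106). Brca2 with Palb2 (r = 0.59, adjusted p = 0.0643) and Nbn with Rad50 (0.57, 0.175) did not pass. Nor did Xrcc5 with Xrcc6, Xrcc4 with Lig4 (r = 0.12, adjusted p = 0.823), Rnf8 with Rnf168 (0.30, 0.533) or Atm with Chek2 (0.27, 0.553). The genes of the 3 pairs that passed also followed the S-phase level, apart from Rad50.

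Other genes of the pathway were called in both directions. Of 79 symbols listed for other double-strand break genes, some of them names of the same gene, 75 were tested. Of the 75, 8 rose and 9 fell against thymus, with a median log2 fold change of 0.14. Together these are 22.7% of the 75, where 30.8% of all genes were called. Between the mutation sets 4 of the 75 were called (Rad1, Cdc25c, Nsmce2 and Recql4), all lower in the mutated set. That is 5.33%, close to the 5.38% of all genes. Against thymus the lists ran as follows. In checkpoint signalling 2 of 14 rose, Topbp1, the activator of ATR (247 ± 45.9 to 387 ± 72.9 CPM, log2 fold change 0.65, adjusted p = 0.0088), and the phosphatase Cdc25a (0.41, 0.046). In end joining none of 11 rose and 3 fell. Among those that fell were Aptx, which removes abortive ligation products (log2 fold change -0.46, adjusted p = 0.0088), and the gap-filling polymerase Polm (-0.93, 0.0192).

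In the recombination list 4 of 26 rose and 4 fell. A place in that list is not evidence of a role in recombination. The rises with the smallest p were Rad54l2 (log2 fold change 0.76, adjusted p = 0.000662), the recombination mediator Rad51b (1.20, 0.000878) and the resection nuclease Dna2 (0.88, 0.00914). The falls were led by Mus81, a junction nuclease (68.6 ± 8.92 to 30.4 ± 11.7 CPM, -1.17, 0.00163), Rmi2, a partner of BLM (-1.0, 0.0144), and Recql5 (-0.35, 0.0204). Among other mediators Bre rose (0.72, adjusted p = 0.00508), and Uimc1 (-0.46, 0.0092) and Nudt16l1 (-0.44, 0.0409) fell, of 10. Fanca was the single Fanconi core gene called of 14 (0.92, adjusted p = 0.00147). For comparison, mismatch repair had none of 7 past the threshold by edgeR's adjusted p and 2 at an unadjusted p under 0.05, base excision repair 3 rises and 2 falls of 16, and nucleotide excision repair 2 rises and 3 falls of 14. Of the S-phase markers 5 of 20 rose (median 0.51), and of the G2-M markers none of 16 changed and 1 had an unadjusted p under 0.05 (median 0.09).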

How the data were processed

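Poly(A) RNA of 21 lymphomas and 3 thymus samples was sequenced. The submitters' processing notes name HISAT2 2.0.1, HTSeq 0.6.1, cutadapt 1.9.1, edgeR and SAMtools, with GRCm38.p6; settings and strand: not given in the sources used here. Deposited by the authors were raw counts for 21878 genes and a TPM table (21879 lines, of which 2 with a repeated symbol were left out). The authors' filtered count tables (12194 and 12109 genes) gave the mutation sets and equal the full table in 100% of values. Tests used edgeR 4.0.16 in R 4.3.3: TMM scaling, filterByExpr (13121 genes), the quasi-likelihood test and Benjamini-Hochberg adjustment at 0.05. Lymphomas against thymus used 2 groups, and the sets 1 model of 3 groups. SE is the log2 fold change over the root of F. Correlations used log2(CPM + 1) and 100000 two-sided permutations. Alternatives were other size factors, DESeq2 1.42.0, 2 filters, limma 3.58.1 on log2(TPM + 1) and log2(TPM + 0.1), the authors' filtered tables and each library left out. Scripts were tested on simulated data. Positions and overlaps come from GENCODE on GRCm38. The genes and lists were chosen with earlier results of these data known. All 37 genes are named by role, with full values for those past the threshold over all lymphomas or between the sets and for a lymphoma under 0.25 of, or over 4 times, the median. Up to 3 genes per direction are named from other lists. One gene that this rule would name is not reported here. Per the labels, all samples share 1 batch date.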

Additional observations from a re-analysis of the deposited data

Results flagged for a closer look

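A lone value at the end of a set of 10 unmutated lymphomas, judged by its gap to the next value over the range of the set (critical value 0.466), was seen in 4 of 37 genes, and chance gives about 1 in 20. The share over all tested genes is not given here. Many of the 37 also varied together over the lymphomas, so no excess is read from this count. The 11 mutated lymphomas were not screened in this way, since the screen covers sets of at most 10. Dclre1c was highest in lymphoma 31 at 78.0 CPM, within the thymus range. Trp53bp1 was highest in lymphoma 32 at 86.3 CPM, which lies among the mutated values. Bard1 was lowest in lymphoma 20 at 27.9 CPM. Rad52 was highest in lymphoma 35 at 36.3 CPM, below every thymus library.

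Trp53bp1 differed between the mutation sets by the test of that difference itself, with a log2 fold change of 0.48 for mutated against unmutated (edgeR's quasi-likelihood test, adjusted p = 0.0101, n = 11 and 10).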

How the results depend on the processing

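No paired analysis was possible, since the sample labels link no lymphoma to a thymus sample and no mutated to an unmutated lymphoma. With each library left out in turn, the genes called ranged from 1929 to 4435 for lymphomas against thymus (5 to 21 of the 37), 1441 to 3904 for the mutated set (4 to 18), 2856 to 4895 for the unmutated set (8 to 20) and 301 to 1221 between the sets (1 to 2). The lowest counts against thymus came without thymus 2. Between the sets the lowest came without lymphoma 34 and the highest without lymphoma 31, where Prkdc was the added gene. DESeq2 called 1269 genes between the sets, against 706, and 2 of the 37, with Chek2 added; the cause was not tested. With no filter on low counts 476 were called. Direction turned for Prkdc (0.0039 with no filter; -0.11 to 0.055 with libraries left out), Mdc1 (-0.15 to 0.066) and Bard1 (-0.059 on log2(TPM + 1), -0.063 on log2(TPM + 0.1), -0.061 to 0.19 with libraries left out), none of which passed the threshold in any setting against thymus; the cause was not tested.

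With 3 thymus libraries, 12 of the 17 calls against thymus were lost without at least 1 of them. With each lymphoma left out, 16 of the 17 were kept, the exception being Rnf8. By Pearson's r, correlations past the threshold numbered 20 on the TPM scale too and 15 with the G2-M markers in place of the S-phase markers. In TPM all lymphomas were above thymus for 2 of the 37 genes, against 4 in CPM, and below it for 4, against 3. On the TPM scale 4 of the 10 pairs passed, Brca2 with Palb2 added. Nhej1 at 2.57 to 6.78 CPM and Rad51c at 0.44 to 2.18 CPM rest on the fewest reads.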
